A study of Saccharomyces cerevisiae with 36 samples.

Results

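The genes described here encode the yeast silencing machinery: SAS2, SAS4 and SAS5, the subunits of a histone acetyltransferase, SIR1, SIR2, SIR3 and SIR4, the silent information regulators, and RIF1 and RIF2, partners of the telomere protein Rap1. They were picked by gene symbol, and each of the 9 had exactly 1 probe set, among 5449 genes with a symbol and 5763 probe sets tested. SAS4 drew attention to the family because its signal in the scc2-D730V mutant stood out among all genes, so that difference is given as a description with no test. RNA was hybridised to Affymetrix Yeast Genome 2.0 arrays from 3 haploid strains of Saccharomyces cerevisiae at 4 times, with 3 independent cultures per strain and 1 array per culture and time (36 arrays, 12 groups). The eco1-W216G strain carries a point mutation in ECO1, the acetyltransferase that makes cohesin cohesive. The scc2-D730V strain carries a point mutation in SCC2, a subunit of the cohesin loader, and WT has neither. Each mutant allele replaced the gene at its own locus together with a hygromycin marker (HYG), so that in each mutant the allele and the marker came together and were studied in 1 strain. All 3 strains were MATa cells of the W303a background with BAR1, the protease that degrades alpha-factor, deleted. Cultures at 0 min were in exponential growth in rich YPD+CSM medium. At 15, 35 and 55 min they had been in minimal medium without amino acids. The eco1-W216G strain grows slowly in rich medium.

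Silencing in budding yeast keeps the spare mating-type cassettes HML and HMR, genes near telomeres and part of the ribosomal DNA transcriptionally quiet. Sir2 removes acetyl groups from histone tails, Sir3 and Sir4 bind the deacetylated tails and spread along chromatin, and Sir1 helps to recruit the complex at the HM silencers. Sas2, with Sas4 and Sas5, acetylates a lysine of histone H4 that Sir2 deacetylates, and so marks chromatin outside the silent domains. Rif1 and Rif2 compete with the Sir proteins for Rap1 at telomeres and limit telomere length.

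Signals are log2 intensities throughout, and a difference between groups is a log2 ratio from 1 limma fit over all arrays with Benjamini-Hochberg adjusted p-values over all probe sets. A gene passed at an adjusted p under 0.05. Probe sets differ in sensitivity, so levels were compared between samples and not between genes. The arrays cannot show a point mutation, so the alleles themselves could not be checked, and the mutated and deleted genes are given as measured. At 0 min ECO1 read 5.05 to 5.26 in eco1-W216G and 8.21 to 8.87 in WT. The ratio of ECO1 in eco1-W216G to WT was -3.28 at 0 min (limma, adjusted p = 3.12e-11) and passed below 0 at each later time (-2.33, -1.46 and -1.03). BAR1, absent from all strains, read 4.44 to 4.89. Over all arrays, the lowest signals of genes specific to MATa cells were 13.16 for the a-factor gene MFA1 and 13.49 for the alpha-factor receptor gene STE2. For MFA2, AGA2, STE6 and ASG7 they were 13.74, 12.14, 11.54 and 9.39. Of genes specific to alpha cells, MF(ALPHA)1, MF(ALPHA)2 and STE3 read at most 6.97, 8.22 and 8.46. SAG1, also specific to alpha cells, was not low, at 10.56 to 12.22. Array medians lay between 10.95 and 11.14.

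SAS4 encodes the subunit that bridges the catalytic subunit Sas2 and Sas5. In scc2-D730V cells it read 9.71, 8.75 and 9.35 at 0 min, 9.31, 9.08 and 9.35 at 15 min, 9.06, 9.38 and 9.43 at 35 min, then 9.02, 8.96 and 9.61 at 55 min. In WT cells it read 10.41, 10.74 and 10.55 at 0 min, 11.17, 10.73 and 10.61 at 15 min, 10.69, 10.67 and 10.52 at 35 min, then 10.79, 10.87 and 10.63 at 55 min. All 12 scc2-D730V arrays thus lay below all 12 WT arrays, and the 12 eco1-W216G arrays (10.36 to 11.09) overlapped those of WT. The log2 ratio of scc2-D730V to WT was -1.29, -1.59, -1.34 and -1.57 at 0, 15, 35 and 55 min (standard error 0.19 each), a 2.45- to 3.01-fold lower signal. The 95% confidence intervals of the 4 ratios together spanned -1.98 to -0.90. Since this difference is what drew attention to SAS4, these values are a description, and the intervals take no account of that choice. Each array measured a whole culture, so fewer cells with the transcript and less of it per cell cannot be told apart. The widest spread among replicates was that of scc2-D730V at 0 min (SD 0.49, n = 3), where replicate 2 was the lowest array.

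Over strains and times SAS4 thus fell into 2 sets of groups. The 4 scc2-D730V groups averaged 9.20 to 9.29, and the 8 groups of the other strains averaged 10.45 to 10.84, and neighbours in that order overlapped everywhere except across the gap of 1.16 between the highest scc2-D730V group mean and the lowest eco1-W216G group mean. The shift to minimal medium without amino acids did not move SAS4 past the threshold in any strain at any time. Its changes from 0 min were 0.37, 0.38 and 0.09 in eco1-W216G, -0.02, 0.01 and -0.08 in scc2-D730V, and 0.27, 0.06 and 0.20 in WT, at 15, 35 and 55 min. In eco1-W216G against WT its log2 ratios of -0.11, -0.01, 0.21 and -0.22 at the 4 times also did not pass (limma, smallest adjusted p = 0.377).

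**Figure D1:**
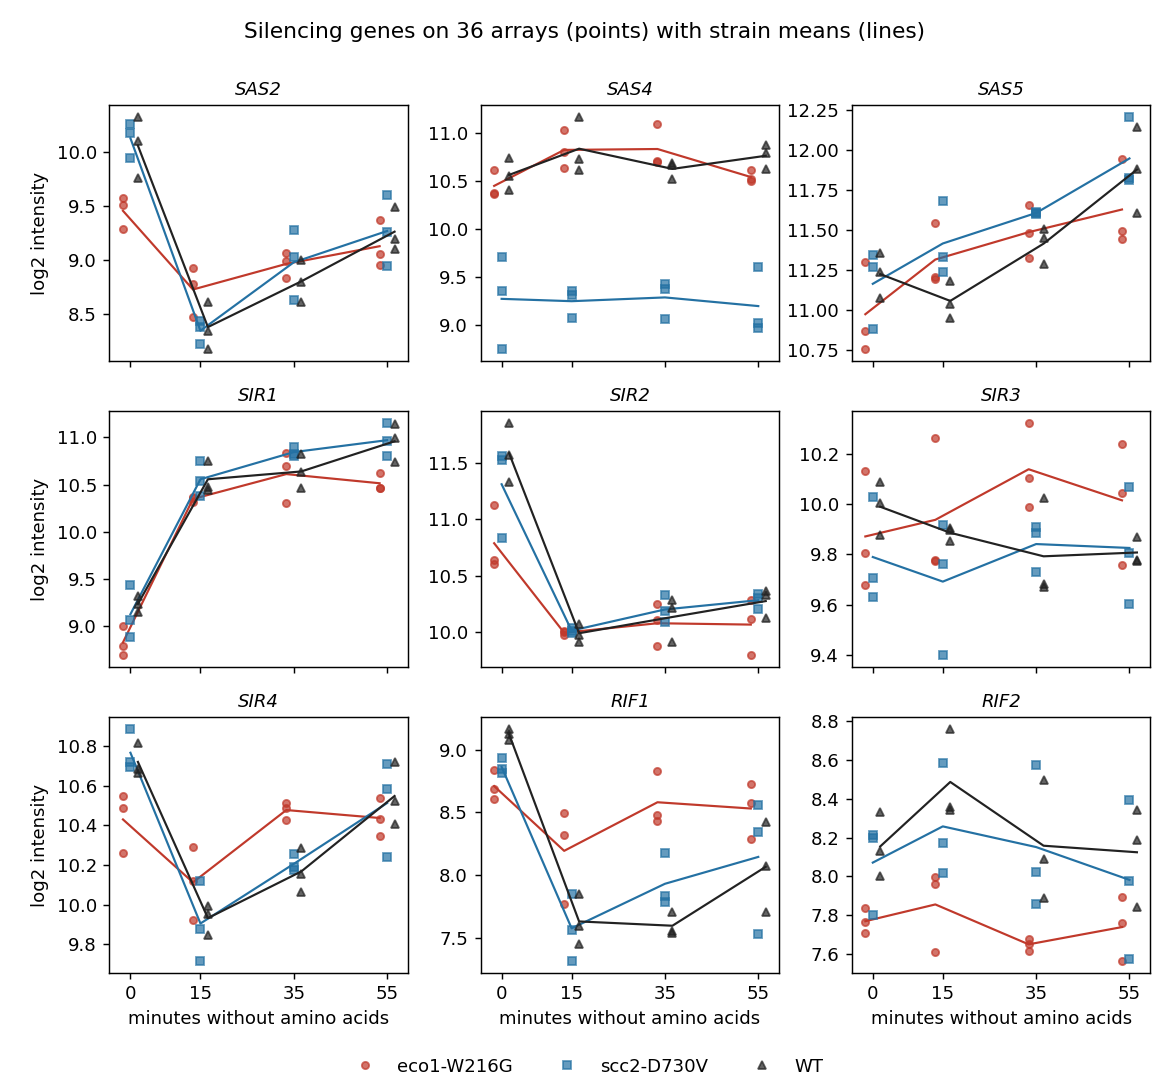
Log2 intensity (y axes, each with its own range) of the 9 silencing genes against minutes without amino acids, with 1 point per array and lines through the means of 3 arrays in eco1-W216G (circles), scc2-D730V (squares) and WT (triangles). SAS4 lies near 9.3 in scc2-D730V at all times, while SAS2, SIR2, SIR4 and RIF1 are lower at 15 min than at 0 min in each strain and SIR1 is higher.

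SAS4 lies on chromosome IV directly beside SCC2, the gene mutated in that strain: in RefSeq assembly R64 the coding ends of these 2 genes face each other across 133 bp, and CDC1, an essential gene, lies 226 bp away on the other side. The nearest 5 measured genes on each side were therefore compared. None of the 10 passed in scc2-D730V against WT at any time, where 0.0347% of all probe sets passed (2 of 5763 at each time, with SAS4 counted). Their log2 ratios ran between -0.45 and 0.64. For SCC2 itself the ratio was -0.29 at 0 min, 0.38 at 15 min, 0.06 at 35 min and 0.01 at 55 min (standard error 0.11; limma, adjusted p = 1.0 at each time, with an unadjusted p of 0.0156 at 0 min and 0.00233 at 15 min). For CDC1 the ratio ran between -0.21 and 0.05. The HYG marker beside the SCC2 allele and the D730V change cannot be told apart in this strain.

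In eco1-W216G against WT, where the mutated gene lies on another chromosome, some of the same 10 neighbours did pass. At 0 min 1 was higher and 2 were lower, 15 min gave 3 higher and 1 lower, 35 min 3 of each, and 55 min 2 higher and 1 lower. Of all probe sets 25.5%, 41.5%, 46.5% and 37.9% passed at those times. The share of the 10 neighbours was near that of all probe sets at 0 and 15 min, above it at 35 min and below it at 55 min. With the replicate number as a block the counts were 4 higher and 2 lower at 15 min, with CSN9 and SDH4 added. At 35 min they were 4 higher and 3 lower, with UBC1 added, and at 55 min 3 higher and 2 lower, with SCC2 and NVJ3 added. The shares of all probe sets given here are from the fit without that block. ATC1 gave the widest difference: it did not pass at 0 min, and its ratios of 2.38, 2.10 and 1.73 at the later times passed. SCC2 had a ratio of -0.40 at 0 min, a call lost without eco1-W216G replicate 3 or WT replicate 2 (-0.46 to -0.33 over all alternatives), and of 0.60 at 15 min. The calls of NVJ3 at 0 min, CCT6 at 15 min, CSN9, SDH4 and YDR182W-A at 35 min, and CSN9 and UPS3 at 55 min were also lost when some single cultures were left out. SAS4 sat among them with no call at any time.

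**Figure D2:**
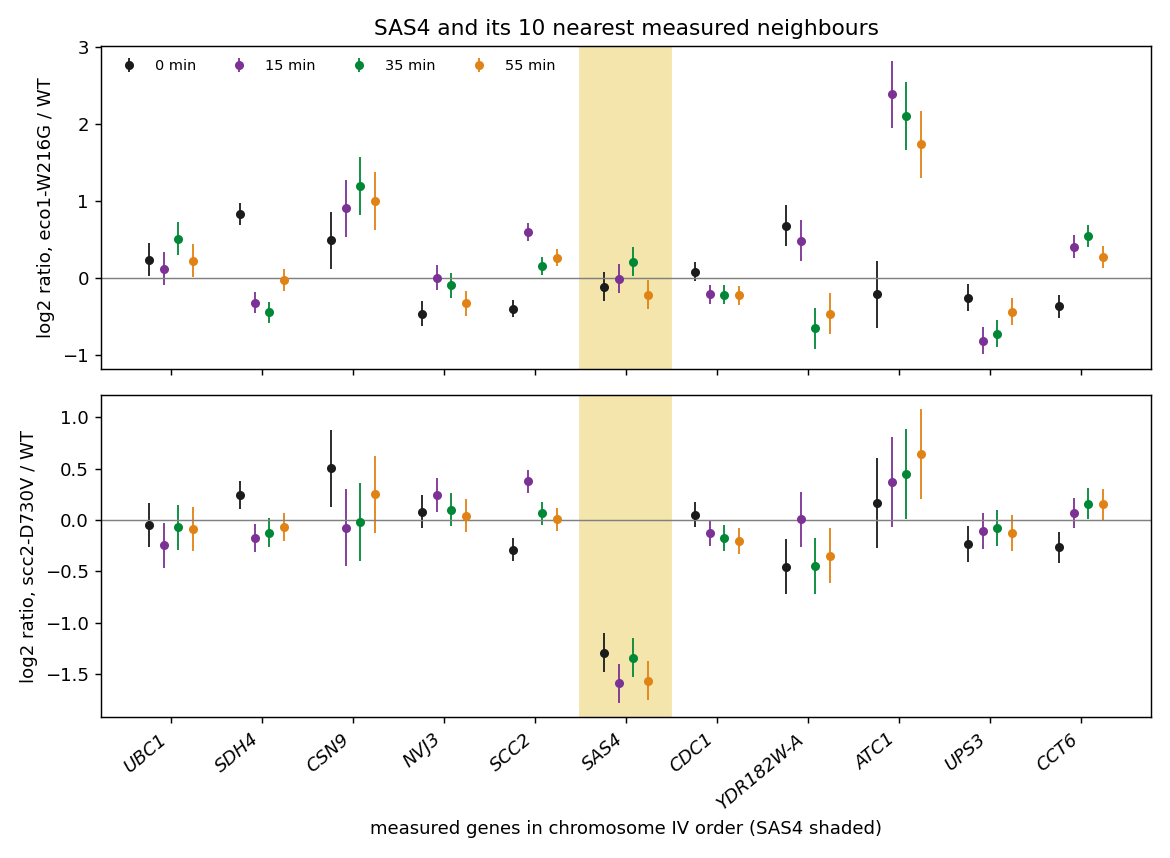
Log2 ratio to WT ± SE (y axes) of SAS4 (shaded) and the 5 measured genes on each side of it in chromosome order (x axis), in eco1-W216G (top) and scc2-D730V (bottom) at 0, 15, 35 and 55 min. In scc2-D730V, SAS4 lies between -1.29 and -1.59 and the other 10 genes between -0.45 and 0.64, and in eco1-W216G, SAS4 lies between -0.22 and 0.21 while ATC1 reaches 2.38.

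Of the other 8 silencing genes none passed in scc2-D730V against WT. At each of the 4 times the count was 0 of 8 (limma), where 0.0347% of all probe sets passed, a share in which SAS4 is counted. Of these 32 differences 1 had an unadjusted p under 0.05. Over all probe sets, 97, 173, 70 and 20 had an unadjusted p under 0.05 at 0, 15, 35 and 55 min. Their log2 ratios ran from -0.27 to 0.36, and the outermost bounds of the 95% confidence intervals were -0.69 and 0.77, which bounds the differences that 3 arrays a group leave possible. The one with the low unadjusted p was SAS5 at 15 min, which read 11.68, 11.24 and 11.33 in scc2-D730V and 11.18, 11.04 and 10.96 in WT. These groups did not overlap, and the ratio was 0.36 ± 0.17 (standard error; adjusted p = 1.0).

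In eco1-W216G against WT, 1 to 3 of the 9 genes passed at each time. At 0 min 3 of 9 genes passed, all lower: SIR2, SAS2 and SIR1. Of all probe sets 25.5% passed there, 13.7% higher and 11.9% lower. At 15 min RIF1 was higher and RIF2 lower, 2 of 9, where 41.5% of all probe sets passed (18.8% higher, 22.7% lower). At 35 min RIF1 and SIR4 were higher and RIF2 lower, 3 of 9, where 46.5% passed (19.9% higher, 26.6% lower). At 55 min SIR1 was lower, 1 of 9, where 37.9% passed (16.8% higher, 21% lower). The share of the family that passed was thus near that of all probe sets at 0 min and below it later. The median ratio of the 9 genes was -0.39, 0.05, 0.16 and -0.21 at 0, 15, 35 and 55 min, against -0.08, -0.08, -0.09 and -0.09 over all probe sets. With each array centred on its own median, the calls at 35 min were 3 higher and 0 lower, with SIR3 in and RIF2 out, and those at 55 min were 1 higher and 1 lower, with RIF1 in. With the replicate number as a block, RIF2 was added at 0 min, which gave 4 calls, and RIF1 and RIF2 at 55 min, which gave 3. Single cultures weighed on these counts. Without eco1-W216G replicate 3 they were 1 at 0 min and 0 at 15 min, and without eco1-W216G replicate 1 they were 1 at 35 min and 0 at 55 min.

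**Figure D3:**
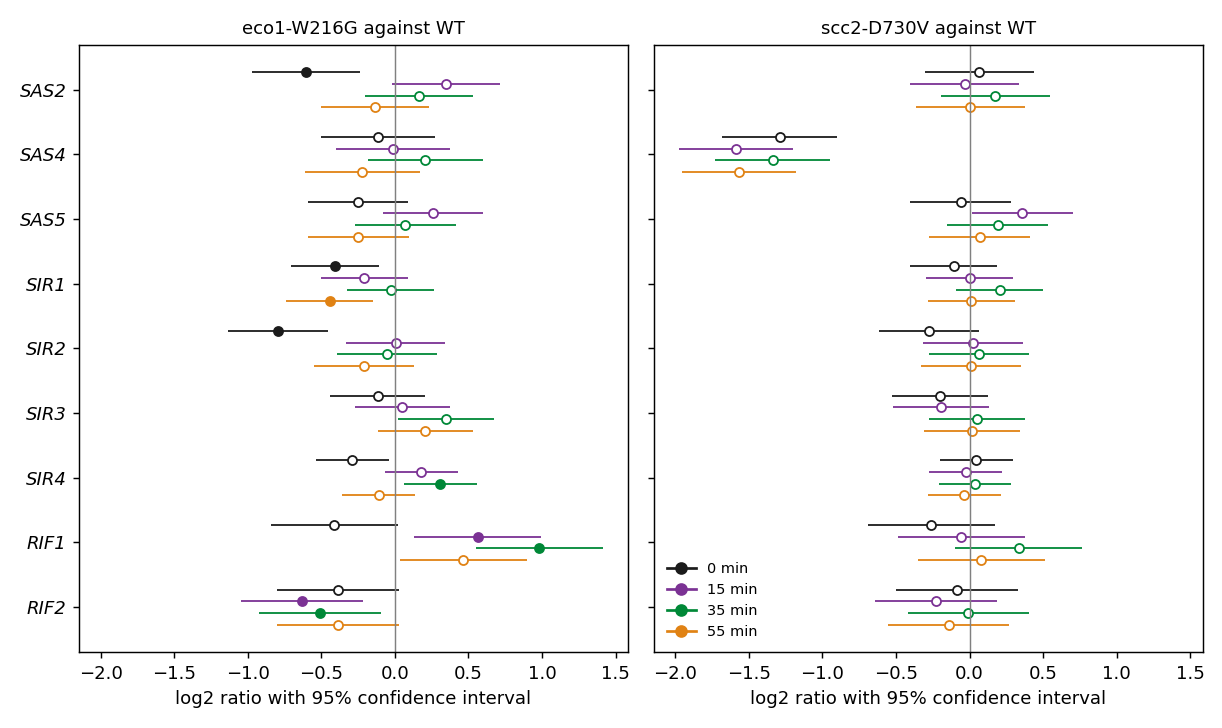
Log2 ratio to WT (x axes) with 95% confidence intervals of the 9 silencing genes in eco1-W216G (left) and scc2-D730V (right) at 0, 15, 35 and 55 min; filled points passed at an adjusted p under 0.05, while open points did not pass or, for SAS4 in scc2-D730V, were not tested. SIR2 in eco1-W216G is at -0.80 at 0 min and near 0 later, RIF1 reaches 0.98 at 35 min, and in scc2-D730V all genes other than SAS4 lie between -0.27 and 0.36.

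Across the family, some genes moved after the shift from rich medium to minimal medium without amino acids, and others did not. The loss of amino acids cannot be told apart from the rest of that change of medium, the transfer or the time passed. In eco1-W216G 1 gene was higher and 4 lower at 15 min, 2 were higher and 2 lower at 35 min, and 2 were higher and 1 lower at 55 min, where 50.1%, 49.7% and 49.2% of all probe sets passed (23.4%, 23.3% and 23.6% higher, 26.8%, 26.4% and 25.6% lower). In scc2-D730V the counts were 1 higher and 4 lower, 2 and 4, and 2 and 3, where 71.2%, 70.3% and 68.7% passed (36.4%, 36.7% and 35.9% higher, 34.8%, 33.6% and 32.8% lower). In WT they were 1 and 4, 1 and 4, and 2 and 3, where 73.4%, 72.6% and 71.2% passed (37%, 36.7% and 36% higher, 36.4%, 35.9% and 35.2% lower). The lower genes in WT were SAS2, SIR2 and RIF1 at all 3 times and SIR4 at 15 and 35 min, and the higher ones were SIR1 at all times and SAS5 at 55 min. The shares of the family were below those of all probe sets in WT and scc2-D730V, and SAS4, SIR3 and RIF2 passed in no strain. The median change in WT was -0.17, -0.20 and -0.17 at 15, 35 and 55 min, against 0.02 over all probe sets at each time.

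**Figure D4:**
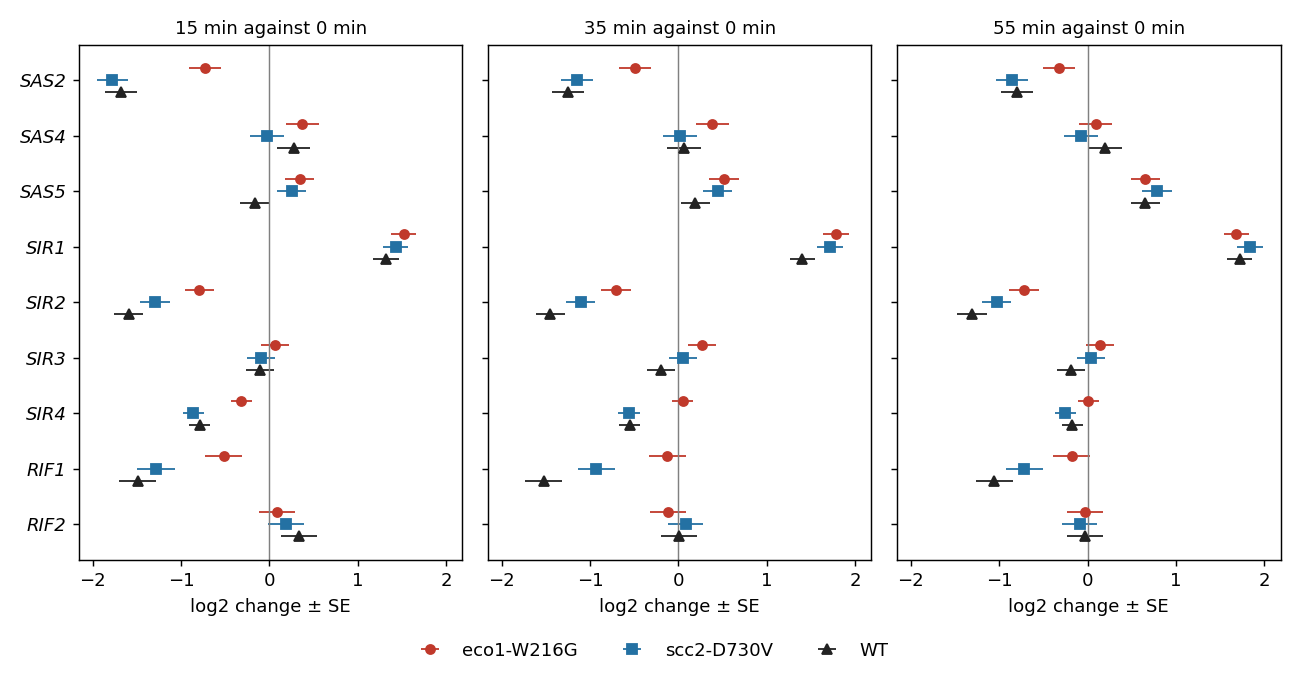
Log2 change ± SE (x axes) of the 9 silencing genes at 15, 35 and 55 min of starvation against 0 min of the same strain, in eco1-W216G (circles), scc2-D730V (squares) and WT (triangles). SAS2, SIR2, SIR4 and RIF1 lie closer to 0 in eco1-W216G than in WT at 15 and 35 min, and SIR1 lies between 1.32 and 1.84 in all strains.

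The genes whose response differed between eco1-W216G and WT were those that fell in WT. The change was less negative or more positive in eco1-W216G for 4 of 9 genes at 15 min and the same 4, SAS2, SIR2, SIR4 and RIF1, at 35 min, and for RIF1 at 55 min. None differed in the other direction. Over all probe sets 35.5%, 41.5% and 32.7% passed at those times, 17.4%, 19.8% and 15.6% in that direction and 18.1%, 21.7% and 17.1% in the other. Without eco1-W216G replicate 3 the counts were 1 at 15 min and 2 at 35 min, and without eco1-W216G replicate 1 the count was 0 at 55 min. The median of these differences over the 9 genes was 0.47, 0.46 and 0.18, against -0.03, -0.05 and -0.03 over all probe sets. Both strain ratios and these differences rest on the same 0 min arrays.

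SIR2 encodes the NAD-dependent histone deacetylase on which silencing at all 3 kinds of locus depends. At 0 min it read 10.64, 11.12 and 10.60 in eco1-W216G and 11.33, 11.85 and 11.57 in WT. All 3 mutant arrays lay below all WT arrays, and the ratio was -0.80 ± 0.17 (standard error), a 1.74-fold lower signal (limma, adjusted p = 0.00064), which passed whichever culture was left out. In minimal medium the strains came together. At 15 min SIR2 read 10.01, 9.97 and 10.0003 in eco1-W216G, 9.99, 10.03 and 10.01 in scc2-D730V, and 9.98, 9.92 and 10.08 in WT, so that all 9 arrays lay between 9.92 and 10.08. At 55 min it read 9.80, 10.29 and 10.11 in eco1-W216G and 10.13, 10.37 and 10.33 in WT, which overlapped.

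SIR2 fell in all 3 strains after the shift. Its changes from 0 min were -0.79, -0.71 and -0.72 in eco1-W216G at 15, 35 and 55 min, -1.30, -1.11 and -1.03 in scc2-D730V, and -1.59, -1.45 and -1.31 in WT (limma, adjusted p of 0.00087 or less in each case). The fall in WT at 15 min was 3.02-fold. The fall was smaller in eco1-W216G than in WT, with a difference between the strains' changes of 0.80 ± 0.23 at 15 min and 0.74 ± 0.23 at 35 min (standard errors; limma interaction, adjusted p = 0.0085 and 0.0121), and 0.59 ± 0.23 at 55 min, which did not pass (adjusted p = 0.0538; 0.015 with the replicate number as a block). The difference at 15 min was lost without eco1-W216G replicate 3 or WT replicate 2 (0.63 to 0.70), and that at 35 min without eco1-W216G replicate 3 (0.56). These differences use the same 0 min arrays on which SIR2 was lower in eco1-W216G.

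SIR4, which scaffolds the complex and binds Sir2, Sir3 and Rap1, was lowest at 15 min in all 3 strains and higher again at 55 min. That rise from 15 to 55 min passed in scc2-D730V and WT and did not pass in eco1-W216G. Whether the strains differed in it was not tested. In eco1-W216G it read 10.55, 10.26 and 10.49 at 0 min, 10.12, 9.92 and 10.29 at 15 min, 10.43, 10.49 and 10.51 at 35 min, then 10.54, 10.35 and 10.43 at 55 min. In WT it read 10.81, 10.68 and 10.66 at 0 min, 9.85, 9.96 and 9.99 at 15 min, 10.15, 10.28 and 10.06 at 35 min, then 10.72, 10.52 and 10.40 at 55 min. The 15 min arrays of WT all lay below its 0 min arrays, and those of eco1-W216G overlapped its own 0 min arrays. In eco1-W216G, SIR4 fell by 0.32 at 15 min (limma, adjusted p = 0.0296), a call lost without eco1-W216G replicate 1 or 2 (-0.31 and -0.26), and the changes of 0.05 and 0.01 at 35 and 55 min did not pass. In scc2-D730V the changes of -0.86 and -0.56 at 15 and 35 min passed, and that of -0.25 at 55 min did not (adjusted p = 0.0634). In WT the changes of -0.79 and -0.55 passed (standard error 0.12, adjusted p = 1.34e-06 and 0.000181), and that of -0.17 at 55 min did not. The change in eco1-W216G exceeded that in WT by 0.47 ± 0.17 at 15 min and 0.60 ± 0.17 at 35 min (limma interaction, adjusted p = 0.0319 and 0.00571). The 15 min difference was lost without replicate 1 or 3 of eco1-W216G or replicate 1 or 2 of WT (0.38 to 0.52). At 35 min the eco1-W216G arrays lay above all those of WT, and the ratio of 0.31 (adjusted p = 0.0363) was lost without any 1 culture of eco1-W216G or without WT replicate 1 or 3 (0.26 to 0.33).

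SIR3, whose product binds deacetylated histone tails and multimerises along them, passed nowhere. Over all 36 arrays it lay between 9.3998 and 10.32. Its ratio of eco1-W216G to WT was -0.12, 0.05, 0.35 and 0.21 at 0, 15, 35 and 55 min, with a 95% confidence interval of 0.02 to 0.67 at 35 min (limma, adjusted p = 0.0746). Its changes from 0 min ran from -0.20 to 0.27 over the 3 strains and 3 times.

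SIR1, which acts at the HM silencers, rose in all 3 strains. It read 8.70, 8.79 and 8.999 in eco1-W216G at 0 min, 9.44, 8.88 and 9.06 in scc2-D730V, and 9.32, 9.15 and 9.24 in WT. At 55 min it read 10.46, 10.46 and 10.62 in eco1-W216G, 10.96, 10.80 and 11.15 in scc2-D730V, and 11.14, 10.99 and 10.74 in WT. Every starved array of each strain, at 10.30 or above, was higher than every 0 min array, at 9.44 or below. SIR1 rose by 1.52, 1.78 and 1.68 in eco1-W216G at 15, 35 and 55 min, by 1.43, 1.72 and 1.84 in scc2-D730V, and by 1.32, 1.402 and 1.72 in WT (standard error 0.14, limma, largest adjusted p = 3.87e-09), which is 3.21-, 3.58- and 3.30-fold at 55 min. The change did not differ between eco1-W216G and WT past the threshold at any time. The ratio of SIR1 in eco1-W216G to WT was -0.41 at 0 min and -0.44 at 55 min (limma, adjusted p = 0.0389 and 0.0171), and the groups did not overlap at either time. The 0 min call was lost without any 1 culture of eco1-W216G or WT (-0.49 to -0.34), and the 55 min call without replicate 1 or 2 of either strain (-0.43 to -0.35).

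SAS2, the catalytic subunit of the SAS complex, dropped at 15 min in all strains and partly came back by 55 min. The rise from 15 to 55 min passed in scc2-D730V and WT, and that of 0.40 in eco1-W216G did not. In eco1-W216G it read 9.50, 9.57 and 9.29 at 0 min, 8.93, 8.47 and 8.78 at 15 min, 8.99, 8.84 and 9.07 at 35 min, then 9.06, 9.37 and 8.95 at 55 min. In WT it read 10.09, 10.32 and 9.75 at 0 min, 8.18, 8.35 and 8.61 at 15 min, 8.80, 8.997 and 8.61 at 35 min, then 9.49, 9.19 and 9.10 at 55 min. The 0 min arrays of eco1-W216G lay below those of both other strains, and the starved arrays of eco1-W216G and WT overlapped at each time. The ratio to WT at 0 min was -0.60 (limma, adjusted p = 0.0143), a call lost without eco1-W216G replicate 3 or WT replicate 2 (-0.52 and -0.47). The change of SAS2 from 0 min in eco1-W216G was -0.73 at 15 min (adjusted p = 0.0014, lost without eco1-W216G replicate 2, -0.54) and -0.49 at 35 min (adjusted p = 0.0249, lost without eco1-W216G replicate 1 or 2, -0.48 and -0.37), and the change of -0.33 at 55 min did not pass. In scc2-D730V the changes were -1.78, -1.15 and -0.86, and all 3 passed. In WT they were -1.68, a 3.19-fold lower signal, -1.25 and -0.79 (standard error 0.18, adjusted p = 2.48e-09, 4.65e-07 and 0.000285). The difference between the changes of eco1-W216G and WT was 0.95 ± 0.25 at 15 min and 0.76 ± 0.25 at 35 min (limma interaction, adjusted p = 0.00438 and 0.0167). At 15 min it passed whichever culture was left out, and at 35 min it was lost without eco1-W216G replicate 3 or WT replicate 2 (0.63 and 0.73).

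SAS5, the remaining subunit of the complex, rose late. In eco1-W216G it read 10.87, 11.30 and 10.76 at 0 min and 11.45, 11.95 and 11.50 at 55 min, in scc2-D730V 10.88, 11.27 and 11.35 at 0 min and 12.21, 11.83 and 11.82 at 55 min, and in WT 11.08, 11.36 and 11.24 at 0 min and 12.15, 11.61 and 11.88 at 55 min. In each strain all 55 min arrays were above all 0 min arrays. SAS5 was higher than at 0 min by 0.51 at 35 min in eco1-W216G, lost without eco1-W216G replicate 3 (0.41), and by 0.65 at 55 min (limma, adjusted p = 0.0124 and 0.00206). In scc2-D730V it was higher by 0.44 at 35 min, lost without scc2-D730V replicate 1 (0.30), and by 0.78 at 55 min (adjusted p = 0.0203 and 0.000162). In WT the 55 min change of 0.65 was the only one that passed (adjusted p = 0.00103), and it was lost without WT replicate 1 (0.44). The 3 subunits of 1 complex thus moved apart during starvation in WT, with SAS2 lower at all 3 times, SAS4 without a call and SAS5 higher at 55 min. SAS5 did not pass between eco1-W216G and WT at any time, with ratios of -0.25 to 0.26.

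RIF1, a large Rap1-binding protein that also restrains replication origins, gave the widest difference between eco1-W216G and WT in minimal medium. At 35 min it read 8.48, 8.43 and 8.83 in eco1-W216G, 7.83, 7.79 and 8.18 in scc2-D730V, and 7.55, 7.71 and 7.54 in WT. The mutant arrays of eco1-W216G lay above those of both other strains, and the ratio to WT was 0.98 ± 0.21 (standard error), a 1.98-fold higher signal (limma, adjusted p = 0.000402), a call that no left-out culture changed. At 0 min RIF1 read 8.61, 8.69 and 8.84 in eco1-W216G and 9.13, 9.16 and 9.08 in WT, also without overlap but in the other direction. That ratio of -0.41 did not pass (adjusted p = 0.154). At 15 min the ratio was 0.56 (adjusted p = 0.0331), a call lost without replicate 1 or 3 of eco1-W216G or replicate 1 or 2 of WT (0.41 to 0.54), and at 55 min it was 0.46 and did not pass (adjusted p = 0.0834; 0.0306 with the replicate number as a block).

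The response of RIF1 to the shift also differed between these strains. Its changes from 0 min were -1.28, -0.93 and -0.72 in scc2-D730V at 15, 35 and 55 min and -1.49, -1.52 and -1.05 in WT (limma, adjusted p of 6.56e-05 or less in WT). The last one in scc2-D730V was lost without scc2-D730V replicate 2 (-0.42). In eco1-W216G the change was -0.52 at 15 min (adjusted p = 0.0431), a call lost without any 1 culture of eco1-W216G or without WT replicate 1 or 3 (-0.63 to -0.32), and the changes of -0.13 and -0.18 at 35 and 55 min did not pass. The change in eco1-W216G minus that in WT was 0.97, 1.396 and 0.88 at 15, 35 and 55 min (standard error 0.30, limma interaction, adjusted p = 0.0116, 0.000455 and 0.0246). The 35 min difference passed whichever culture was left out. The 15 min difference was lost without replicate 1 or 3 of eco1-W216G or replicate 2 of WT (0.86 to 0.89), and the 55 min difference without replicate 1 or 3 of eco1-W216G or replicate 2 or 3 of WT (0.68 to 0.90).

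RIF2, which binds Rap1 beside Rif1 and limits telomerase, had changes from 0 min of -0.12 to 0.33 over strains and times, none of which passed. With the replicate number as a block, its change of 0.33 in WT at 15 min passed (adjusted p = 0.0333, against 0.138 without the block). Its ratio of eco1-W216G to WT was below 0 at each time. At 15 min it read 7.96, 7.995 and 7.61 in eco1-W216G, against 8.34, 8.76 and 8.36 in WT, without overlap, and at 35 min 7.62, 7.68 and 7.65, against 8.09, 8.50 and 7.89. The ratios of -0.63 at 15 min and -0.51 at 35 min passed (limma, adjusted p = 0.0131 and 0.0395), and those of -0.39 at 0 min and -0.39 at 55 min did not, but both passed with the replicate number as a block (adjusted p = 0.0355 and 0.027). The 15 min call was lost without eco1-W216G replicate 3 or WT replicate 2 (-0.51 and -0.50), and the 35 min call without any 1 culture of eco1-W216G or without WT replicate 1 or 2 (-0.54 to -0.34). BAR1, the deleted gene, had ratios of -0.14, -0.22, -0.14 and -0.14 at the same 4 times, of which the 15 min ratio passed (adjusted p = 0.035) and was lost without some single cultures (-0.28 to -0.16). That probe set has no transcript to read, and the part of such a shift in the RIF2 values was not tested.

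A comparison of 55 with 15 min, added after the values had been seen, followed the later part of the course. In eco1-W216G 0 of 9 passed in limma (2.65% of all probe sets passed, 1.53% higher and 1.13% lower, and 1017 of 5763 had an unadjusted p under 0.05), with changes of 0.40 for SAS2, 0.32 for SIR4 and 0.34 for RIF1. In scc2-D730V 5 of 9 were higher at 55 than at 15 min (31.9% of all probe sets passed, 19% higher and 13% lower): SAS2 by 0.92, SIR4 by 0.61, RIF1 by 0.57, SAS5 by 0.53 and SIR1 by 0.41. SAS5 and SIR1 were lost there without scc2-D730V replicate 2 or 3 (0.50 to 0.56 and 0.32 to 0.41), and RIF1 without replicate 1 or 3 of scc2-D730V, eco1-W216G replicate 1 or WT replicate 3 (0.34 to 0.57). In WT 4 were higher (35.6% of all probe sets passed, 20.2% higher and 15.4% lower): SAS2 by 0.88, SAS5 by 0.82, SIR4 by 0.62 and SIR1 by 0.40, of which SIR1 was lost without any 1 WT culture (0.33 to 0.47). With the replicate number as a block, 6 passed in WT, with RIF1 higher by 0.43 and RIF2 lower at -0.36 (limma, adjusted p = 0.0438 and 0.0384). Whether these late changes differed between strains was not tested.

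Among the partners of the silencing genes, those that passed in eco1-W216G against WT at 0 min were lower, apart from genes of NAD synthesis. Over all probe sets 13.7% were higher and 11.9% lower there. Among 19 silencer and telomere partners of the Sir proteins, 0 were higher and 6 lower, with a list median of -0.35. They included ABF1 (-0.996) and RAP1 (-0.89), which encode factors that bind the silencers, and ORC4 (-0.52), a subunit of the origin recognition complex. Among 15 other acetyltransferase genes and SAS-binding histone chaperone genes, 0 were higher and 5 lower (median -0.40), among them SAS3 (-0.93), the catalytic subunit of the NuA3 acetyltransferase, GCN5 (-0.56), that of SAGA, and MSI1 (-0.40), a subunit of chromatin assembly factor I. Among 8 other histone deacetylase genes 3 were lower (median -0.32), HDA1 (-0.57), HOS1 (-0.41) and RPD3 (-0.32). None of the 4 homologues of SIR2 passed, and with the replicate number as a block 1 was higher and 2 lower. Leaving out single cultures ended the calls of GCN5 (eco1-W216G replicate 3 or WT replicate 2), MSI1 (WT replicate 2), HOS1 and RPD3 (replicate 1 or 3 of eco1-W216G, replicate 2 or 3 of WT), with ratios of -0.63 to -0.47, -0.46 to -0.35, -0.52 to -0.34 and -0.40 to -0.26 over all alternatives. Without eco1-W216G replicate 1, 1 deacetylase gene passed. Over all alternatives 4 to 12 of the Sir partners and 2 to 9 of the acetyltransferase list passed. Both lowest counts came with dim probe sets left out, where genes removed by the filter count as not passed.

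The lists below are set against the same 13.7% of all probe sets higher and 11.9% lower in eco1-W216G at 0 min. Among 6 genes of silencing at the ribosomal DNA, 2 were lower at 0 min in eco1-W216G, TOF2 (-0.90) and FOB1 (-0.51), whose products act at the replication fork barrier. At 35 min 4 of the 6 were higher and 0 lower, where 19.9% of all probe sets were higher and 26.6% lower. For the other partner lists that comparison at 35 min is not given here. Among 11 genes of telomere length and telomerase 3 were lower at 0 min: TEL2 (-0.54), TBF1 (-0.47) and TEL1 (-0.44), a checkpoint kinase. Among 6 genes of the boundary of silent chromatin, 2 were lower: HTZ1 (-0.42), the histone H2A variant, and SWR1 (-0.53), the ATPase that deposits it. The 12 genes of NAD synthesis and salvage, which supply the cofactor of Sir2, gave 2 higher and 0 lower: BNA2 (2.14), the first enzyme of synthesis from tryptophan, and PNC1 (1.27), the nicotinamidase that clears the inhibitor of Sir2. With the replicate number as a block, the boundary list had 4 lower at 0 min, and the NAD list 3 higher and 2 lower. The calls of HTZ1 (WT replicate 2), SWR1 (eco1-W216G replicate 2 or WT replicate 1), TBF1 (any culture of these strains but eco1-W216G replicate 2) and TEL1 (any culture of these strains) were lost when the culture named was left out, with ratios of -0.52 to -0.30, -0.66 to -0.38, -0.56 to -0.40 and -0.51 to -0.33 over all alternatives. Without eco1-W216G replicate 1, 1 gene of the telomere list passed. In scc2-D730V against WT none of the genes of these lists passed at any time, where 0.0347% of all probe sets passed. During starvation in WT, 10 of the 12 NAD genes were higher at 35 min and 1 was lower, and 3 of the 19 Sir partners were higher and 10 lower, where 36.7% of all probe sets were higher and 35.9% lower. Starvation counts of the other partner lists are not given here.

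The loci on which the Sir proteins act were read next. HMLALPHA1, the alpha1 gene of the silent cassette, read 4.48 to 5.37 over all 36 arrays. HMRA1 read 10.005 to 11.37 and HMRA2 10.43 to 11.97. HMR carries the same sequence as the expressed MATa locus of these cells, so their signal cannot be told apart from that of MAT. None of the 3 passed in eco1-W216G or scc2-D730V against WT at any time, where 25.5% to 46.5% and 0.0347% of all probe sets passed. For the lists that follow, 13.7% of all probe sets were higher and 11.9% lower in eco1-W216G against WT at 0 min. Of 4 alpha-specific genes, 2 were higher in eco1-W216G at 0 min: the pheromone gene MF(ALPHA)1 by 0.90, a call lost without WT replicate 3 at a signal of 4.92 to 6.97 over all arrays, and the a-factor receptor gene STE3 by 1.498 (limma, adjusted p = 0.00314 and 0.00336). STE3 read 7.80 to 8.17 in eco1-W216G and 6.36 to 6.81 in WT, without overlap. Of 6 a-specific genes 1 was lower at 0 min, ASG7 (-0.56). Of 8 haploid-specific genes 5 were lower at 0 min, among them the endonuclease gene HO (-1.79) and the pheromone-signalling G protein genes STE4 (-0.71) and GPA1 (-0.56). Tests of the alpha-, a- and haploid-specific lists at later times are not given here. HO did not stay lower. Its group mean in eco1-W216G was 9.06 against 7.26 in WT at 15 min, and 9.50 against 8.04 at 55 min. STE4 stayed lower at 15 and 55 min, at 11.29 against 11.53 and 11.14 against 11.66. STE3 stayed higher by less, at 8.22 against 7.75 and 8.09 against 7.48. The calls of ASG7 and GPA1 were lost without eco1-W216G replicate 3 or WT replicate 1, that of ASG7 also without WT replicate 2 and that of GPA1 without WT replicate 3 (-0.86 to -0.33 and -0.67 to -0.42 over all alternatives), and without eco1-W216G replicate 3 the haploid-specific list had 2 calls.

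Genes within 20 kb of a chromosome end numbered 178 on the array. They were taken by distance alone, and which of them the Sir proteins silence was not tested. In eco1-W216G against WT at 0 min 55 were higher and 11 lower, against 13.7% higher and 11.9% lower over all probe sets, with a median of 0.23 against -0.08, and 38 to 90 passed over all alternatives. The count of 38 came with dim probe sets left out, where genes removed by the filter count as not passed. At 35 min the split was 24 higher and 46 lower (median -0.15), against 19.9% higher and 26.6% lower over all probe sets. In scc2-D730V against WT, 0 were higher and 1 lower at each time, where 0.0347% of all probe sets passed, and the 1 lower gene was COS8. The medians there were -0.08, -0.01, -0.05 and -0.02 at 0, 15, 35 and 55 min. During starvation in WT 86, 92 and 86 of the 178 were higher and 33, 34 and 33 lower at 15, 35 and 55 min, against 37%, 36.7% and 36% higher and 36.4%, 35.9% and 35.2% lower over all probe sets.

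The patterns of single members over the 12 group means were set against those of all other genes, as a description over groups that share strains and times. SAS2 was most like NMD2 (Pearson's r = 0.99), DAS2 and PHO81, and SIR2 most like ECT1, SPT5 and PRP6 (0.99 to 1.0). SIR1 was most like CYS4, YMR1 and CEM1 (0.99 each), RIF1 most like DPB2, BMT6 and TRF5 (0.99 each), SAS5 most like ADE8, MRM1 and GTR1 (0.96 to 0.98) and SIR4 most like POP8, NUP100 and TAH18 (0.96 each). SIR3 was less closely matched, by NSL1, KIP3 and PIB2 (0.88 to 0.90). SAS4 had 1 near match, COS8 (r = 0.89), followed by SPO74 and YBL113C (0.71 each). RIF2 was most like CPD1 (0.97), the deleted BAR1 (0.96) and IOC4 (0.95). Within the family SAS2 tracked SIR4 (r = 0.94) and SIR2 (0.91), SIR1 ran opposite to SIR2 (-0.82), and SAS2 and SAS4, subunits of 1 complex, did not track each other (-0.15). The correlations of SAS4 rest mostly on its low scc2-D730V groups, the difference that drew attention to it. COS8 was also lower in that strain at each time.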

How the data were processed

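Cells were profiled on Affymetrix Yeast Genome 2.0 arrays. The deposited table held RMA intensities computed by the authors, on a linear scale, for all 36 arrays; log2 was taken before testing, where log2 values had been assumed when the tests were planned. The 51 control probe sets were left out, and 5763 were tested. Symbols came from the platform annotation, chromosome order from RefSeq R64. limma (version 3.58.1, R 4.3.3) was fitted with 12 group means over 36 arrays, with Benjamini-Hochberg adjustment within each comparison and a threshold of 0.05. The number of arrays, 3 a group, limits the precision. The fit was tested on simulated data. Named genes were the 9 members, the mutated or deleted genes, 5 measured neighbours on each side of SAS4, up to 3 genes a list with the smallest p at 0 min in eco1-W216G against WT, and the 3 genes most like each member. Members and lists were chosen with earlier results of these data known. Same-numbered arrays deviated together from their group means (a correlation over 0.1 in all 3 pairs) in 11 of 20 comparisons of 2 groups, among them eco1-W216G against WT at 0, 15 and 55 min, so the fit with the replicate number as a block is given where it changes a member's call or moves a count by 1.5 times or more. Alternatives were own arrays only, replicate and culture blocks, array weights, a variance trend, median centring, a filter on dim probe sets, a fold threshold, adjustment over all times and each culture left out; leaving out reporter probe sets was added after seeing the data.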

Additional observations from a re-analysis of the deposited data

Results flagged for a closer look

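The response of 4 silencing genes to the shift to minimal medium without amino acids differed between eco1-W216G and WT in the test of that difference itself (limma interaction over all probe sets, 3 cultures a strain). The change in eco1-W216G minus the change in WT was 0.95 for SAS2, 0.80 for SIR2, 0.47 for SIR4 and 0.97 for RIF1 at 15 min (adjusted p = 0.00438, 0.0085, 0.0319 and 0.0116). At 35 min it was 0.76 for SAS2, 0.74 for SIR2, 0.60 for SIR4 and 1.396 for RIF1 (adjusted p = 0.0167, 0.0121, 0.00571 and 0.000455). At 55 min it was 0.88 for RIF1 (adjusted p = 0.0246). Beside these values stand those at 0 min, which enter every one of the differences: the ratio of eco1-W216G to WT there was -0.60 for SAS2, -0.80 for SIR2, -0.29 for SIR4 and -0.41 for RIF1. At 35 min the ratio was 0.16 for SAS2, -0.06 for SIR2, 0.31 for SIR4 and 0.98 for RIF1. Leaving out single cultures ended 6 of these 9 calls. Without eco1-W216G replicate 3, the differences of SIR2 at both times, SAS2 at 35 min, SIR4 at 15 min and RIF1 at 15 and 55 min did not pass. Without eco1-W216G replicate 1, those of SIR4 at 15 min and RIF1 at 15 and 55 min did not, and without WT replicate 2 those of SAS2 at 35 min, SIR2 and SIR4 at 15 min and RIF1 at 15 and 55 min. That of SIR4 at 15 min was also lost without WT replicate 1, and that of RIF1 at 55 min without WT replicate 3. SAS2 at 15 min, and SIR4 and RIF1 at 35 min, passed whichever culture was left out.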

How the results depend on the processing

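With 3 arrays a group, small differences can be missed. Of 70 member calls, 44 were kept in every alternative that could be run and 26 were lost in some, and none changed sign. Of 230 counts of called members under 10 alternatives, 202 stayed within 1.5 times the reported count. The exceptions follow, and the cause was not tested unless stated. For eco1-W216G against WT, using only the arrays of the groups compared gave 5 at 0 min and 1 at 15 min, and array weights gave 6, 5 and 5 at 0, 35 and 55 min. Leaving out dim probe sets, which removes SAS2, SIR3, RIF1 and RIF2, gave 0 at 15 min and 1 at 35 min there, 3 at each time of starvation in WT, 3 at 15 min in eco1-W216G, 3 at 15 and 55 min in scc2-D730V, 2 at 15 and 35 min for the difference between the changes of eco1-W216G and WT, and 3 for the late change in scc2-D730V. At 55 min eco1-W216G against WT gave 3 with the replicate block, 2 after median centring and 0 at 1.4-fold or more. The difference between changes gave 7 at 35 min with array weights, and at 55 min 2 with the replicate block, 2 with culture as a random block, 3 with array weights, 2 after centring and 2 with adjustment over all times. For the late change, array weights gave 7 in WT and 1 in eco1-W216G, and own arrays only gave 1 in scc2-D730V. Leaving out 1 culture gave 1 to 4, 0 to 2, 1 to 3 and 0 to 1 called members for eco1-W216G against WT at 0, 15, 35 and 55 min, 0 for scc2-D730V against WT, 3 to 5, 3 to 4 and 3 for starvation in eco1-W216G, 5, 5 to 6 and 4 to 6 in scc2-D730V, and 5, 5 and 4 to 5 in WT. It gave 1 to 5, 2 to 4 and 0 to 2 for the difference between changes, and 0, 2 to 5 and 3 to 4 for the late change in eco1-W216G, scc2-D730V and WT. The replicate block added the calls given beside SIR2, RIF1, RIF2, the neighbours and the lists, and changed no other member call. The mean over several probe sets was not run because each member had 1. The ratio of SAS4 in scc2-D730V to WT ran from -1.77 to -1.03 over all 68 values.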
